A study of Mus musculus with 4 samples.

Results

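Hypertrophic chondrocytes (HCs) were read from single-cell RNA counts of the tibia of a male mouse at postnatal day 6 (P6). They were chosen by their measured counts, as barcodes in which 1600 genes or more were found, mitochondrial genes held at most 10% of UMIs, and there were at least 20 Col10a1 UMIs per 10000 and at most 2 UMIs of Ptprc, a gene of leukocytes. A UMI, or unique molecular identifier, tags a single transcript before amplification, so that UMIs count transcripts. This rule found 129 cells among 8256 cells that passed the limits on genes and mitochondrial UMIs, or 1.56% of them, out of 14181 barcodes in all. The mouse was a Col10a1Cre; Rosa26-Tdtomato animal that was also Irx3 +/Δ and Irx5 +/-, with the Irx3 deletion made by the Col10a1 Cre in HCs and their descendants and the Irx5 change in all cells, and no mouse with full doses was analysed here. Cells of the proximal and distal parts of its 2 tibiae were pooled into 1 library, which fills all 4 entries of the P6 sample, and every barcode carried the same library suffix. With 1 library there was no replicate, so no test or p-value is given and cells are not used as replicates.

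HCs are the enlarged cartilage cells at the lower end of the growth plate. They follow the pre-hypertrophic chondrocytes (pre-HCs), which stop dividing and signal through Indian hedgehog and the receptor of parathyroid hormone-related protein, and they lay down type X collagen, mineralise their matrix and attract vessels and bone-forming cells. Some of them die at the border between cartilage and bone, while others leave it and give rise to osteoblasts, which is why the reporter of this mouse, driven by Cre under Col10a1 control, also marks their descendants.

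Col10a1, which encodes the type X collagen chain (ENSMUSG00000039462; GRCm38 chromosome 10, 34389981 to 34397085, plus strand), both chose the cells and controls the Cre of the reporter. The 250 bases before its RefSeq start site are shown for that reason (GRCm38.p6, chr10:34389731-34389980, plus strand), with the letters TATAAATA, which begin 32 bases before the start, in capitals.
Col10a1 promoter: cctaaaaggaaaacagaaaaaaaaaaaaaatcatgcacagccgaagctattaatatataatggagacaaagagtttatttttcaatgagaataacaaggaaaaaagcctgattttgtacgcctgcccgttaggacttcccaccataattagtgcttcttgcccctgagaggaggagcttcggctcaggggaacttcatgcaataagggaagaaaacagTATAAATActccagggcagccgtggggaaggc
TATAAATA, or its reverse complement TATTTATA, was found in 1.57% of 32536 RefSeq promoter windows of this length. The letters ACCACA and TGACTCA, or their reverse complements TGTGGT and TGAGTCA, were not in this window and were found in 14% and 6.73% of all windows.

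The HCs were deeply counted. They held 4463491 UMIs in all, with 4589 UMIs in the shallowest cell, a median of 33978 UMIs and 5162 genes, and 85279 UMIs in the deepest cell. The median mitochondrial share was 4.0%. Pre-HCs, the nearest class, were 624 cells with a median of 28373.5 UMIs and 4422.5 genes. They were defined as cells below the Col10a1 limit with at least 50 Col2a1 UMIs per 10000, more Col2a1 than Col1a1 and at least 3 Pth1r UMIs per 10000. Chondrocytes with less Pth1r were 1309 cells (median 19142 UMIs). Cells with at least 50 Col1a1 UMIs per 10000 and no less Col1a1 than Col2a1 were split by Ifitm5 into 472 immature osteoblasts (median 10653.5 UMIs) and 346 mature osteoblasts (median 18929 UMIs). The immature class had no further rule, so fibroblasts or stromal cells that make Col1a1 were not kept out of it. Leukocytes (1351 cells), erythroid cells (599) and endothelial cells (783) gave the background of RNA that HCs should lack, and 2643 cells met no rule and were not compared.

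The Col10a1 level of the HCs ran from 20.2 to 408 UMIs per 10000, with a median of 89.8. By the ranges used here, 40 cells had 20 to under 50 per 10000, 73 had 50 to under 200 and 16 had 200 or more. These values chose the cells and are given as a description only. The lowest HC had 20.2 Col10a1 UMIs per 10000 (56 UMIs), and the next had 20.3 and 20.6. Just below the limit, the highest 3 cells had 19.6, 18.9 and 18 per 10000, and all 3 met the pre-HC rule. There was no gap in Col10a1 at the limit. Of 29 kept cells with 10 to under 20 per 10000, 23 were pre-HCs. A further 6 kept cells reached the Col10a1 limit but had 3 to 7 Ptprc UMIs and were left out.

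**Figure D1:**
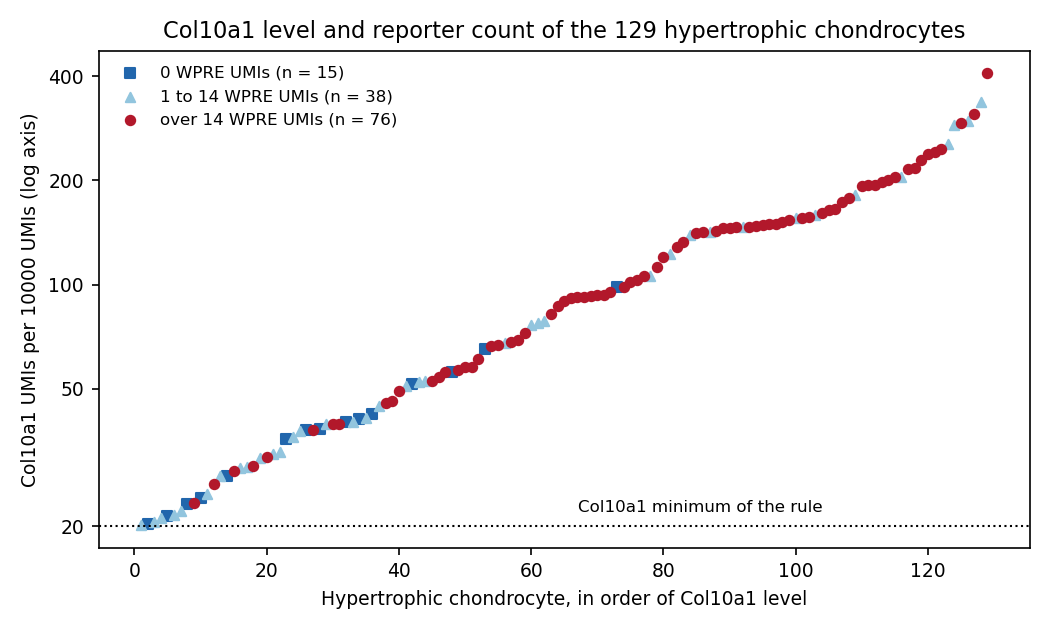
Col10a1 UMIs per 10000 UMIs of each hypertrophic chondrocyte (log axis), in order of level, with the reporter count as colour and shape. Values run without a gap from 20.2 to 408, and the 15 cells without a WPRE UMI reach at most 98.3.

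Summed over the cells, Col10a1 stood at 10444 UMIs per 1000000 (CPM) in HCs, at 112 CPM in pre-HCs and between 13.4 and 19.4 CPM in the other 6 classes. The other 3 genes named as markers of these cells were not part of the rule. Cdsn, which encodes corneodesmosin, an adhesive protein of the outer skin, was at 365 CPM in HCs (counting interval 348 to 384) and 13.9 CPM in pre-HCs, a 26.3-fold difference (23.0 to 30.1). Ffar4, a receptor for long-chain fatty acids, was at 129 CPM against 0.887 CPM, or 146-fold (89.1 to 257). Fxyd3, a small regulator of the sodium pump, was at 366 CPM against 51.0 CPM, or 7.17-fold (6.61 to 7.78). All intervals are at 95%, exact Poisson for levels and exact Clopper-Pearson for shares, and cover counting error only, not the variation between mice.

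The markers were uneven from cell to cell. Cdsn ran from 0 to 15.9 UMIs per 10000 with a median of 2.13, Fxyd3 from 0 to 47.2 with a median of 1.37, and Ffar4 from 0 to 6.40 with a median of 0.359. At least 1 UMI of these 3 genes was found in 120 of the 129 cells, all 3 genes were found together in 62 cells, and 9 cells had none of them. A UMI of Cdsn was found in 71.3% of HCs, of Fxyd3 in 82.9% and of Ffar4 in 56.6%. With each cell thinned to 5000 UMIs, which leaves 128 HCs, Cdsn was found in 50.8% of HCs, 4.49% of pre-HCs and 0.835% of erythroid cells, which should lack it (median depth 13205 UMIs). Ffar4 was found in 32.8% of the thinned HCs, 0.321% of pre-HCs and 0 of 599 erythroid cells. Fxyd3 was found in 54.7% of the thinned HCs, 14.8% of pre-HCs and 0.334% of erythroid cells. The markers were lowest near the Col10a1 limit, where the 40 cells of 20 to under 50 Col10a1 UMIs per 10000 had medians of 0.130 for Cdsn, 0.404 for Fxyd3 and 0 for Ffar4, against pre-HC medians of 0 for all 3. The 3 markers were named from earlier results of these data, so they are no independent check of the label. Apoa4, an apolipoprotein that was listed with the markers, was at 54.0 CPM in HCs and came from 27 cells, 5 of which gave 55.6% of its UMIs.

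RNA of other cell types was low in most HCs and high in a few. The leukocyte list (9 genes) summed to 872 CPM in HCs and 504 CPM in pre-HCs. Its median over HCs was 1.18 UMIs per 10000, and 5 cells gave 84.0% of its UMIs. S100a9, its most abundant gene there, was at 417 CPM. The haemoglobin gene Hbb-bs was at 1369 CPM in HCs, 1130 CPM in pre-HCs and 166789 CPM in erythroid cells, and 5 HCs gave 90.1% of its UMIs in HCs. The 6 endothelial markers summed to 14.3 CPM. The osteoclast list summed to 136 CPM, of which Ctsk, known from osteoclasts and other bone cells, gave 99.7 CPM, while the osteoclast fusion gene Ocstamp had 3 UMIs. By limits set after the data were seen, 5 HCs were rich in other cells' RNA (2 in leukocyte genes, 1 in smooth muscle genes and 2 in haemoglobin). Scrublet marked 1 HC as a doublet. These cells were kept. Without the 5 rich cells, Hbb-bs was at 218 CPM and S100a9 at 64.5 CPM in HCs.

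Against pre-HCs, HCs were higher by at least 2-fold in 304 of 2966 genes (10.2%) and lower by at least 2-fold in 103 (3.47%). The genes compared had at least 50 CPM in either class, and the call was made on log2 ratios with 10 CPM added, which understates the ratio of low genes. The median log2 ratio over these genes was 0.27 rather than 0. Centred on that median, 162 genes were higher and 181 were lower, so the excess of higher genes depends on the scaling. Gene lists whose calls changed under that centring are given with both counts. Genes of the Col10a1 and Pth1r rules are no result in this comparison, and pre-HCs had to hold Col2a1 while HCs did not. Of the HCs, 31 had under 50 Col2a1 UMIs per 10000, while 78 had at least 50 of Col2a1 and 3 of Pth1r, the limits of the pre-HC rule. Among markers of other cells, Ctsk (99.7 against 21.3 CPM) and Lyz2 were at least 2-fold higher in HCs, Lyz2 not when centred, and 0 of 4 haemoglobin genes were.

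The 15 genes that stood highest in HCs relative to the highest of the 7 other classes were ranked among 2798 genes with at least 50 CPM in HCs and a UMI in at least 25% of them. After Col10a1, Cdsn and Ffar4 came Car6, a secreted carbonic anhydrase, at 88.9 CPM in HCs and 1.72 CPM in pre-HCs. Fgf21, a stress-induced hormone, was at 91.2 CPM against 1.61 CPM, but only 33 cells had a UMI of it and 5 cells gave 65.1% of its UMIs. Ddit4l, an inhibitor of growth signalling through mTOR, was at 221 CPM against 19.5 CPM. Fn1, the matrix protein fibronectin, was at 8256 CPM against 1162 CPM in pre-HCs and 1524 CPM in immature osteoblasts, and every HC had it, from 4.68 to 660 UMIs per 10000. F13a1, the transglutaminase subunit of clotting factor XIII, which cross-links matrix proteins, was at 486 CPM against 14.9 CPM in pre-HCs and 90.8 CPM in leukocytes. The other genes were Fxyd3, Rbp4 (the retinol carrier, 748 against 153 CPM), Cds1 (a phospholipid enzyme, 99.0 against 5.77 CPM), Avil (an actin-binding protein, 62.7 against 3.77 CPM), Nacad (120 against 7.49 CPM), Des (the muscle filament desmin, 57.4 against 3.60 CPM) and Bmp6 (a bone morphogenetic protein, 93.2 against 10.9 CPM). None of the 15 was chosen for a shared role.

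**Figure D2:**
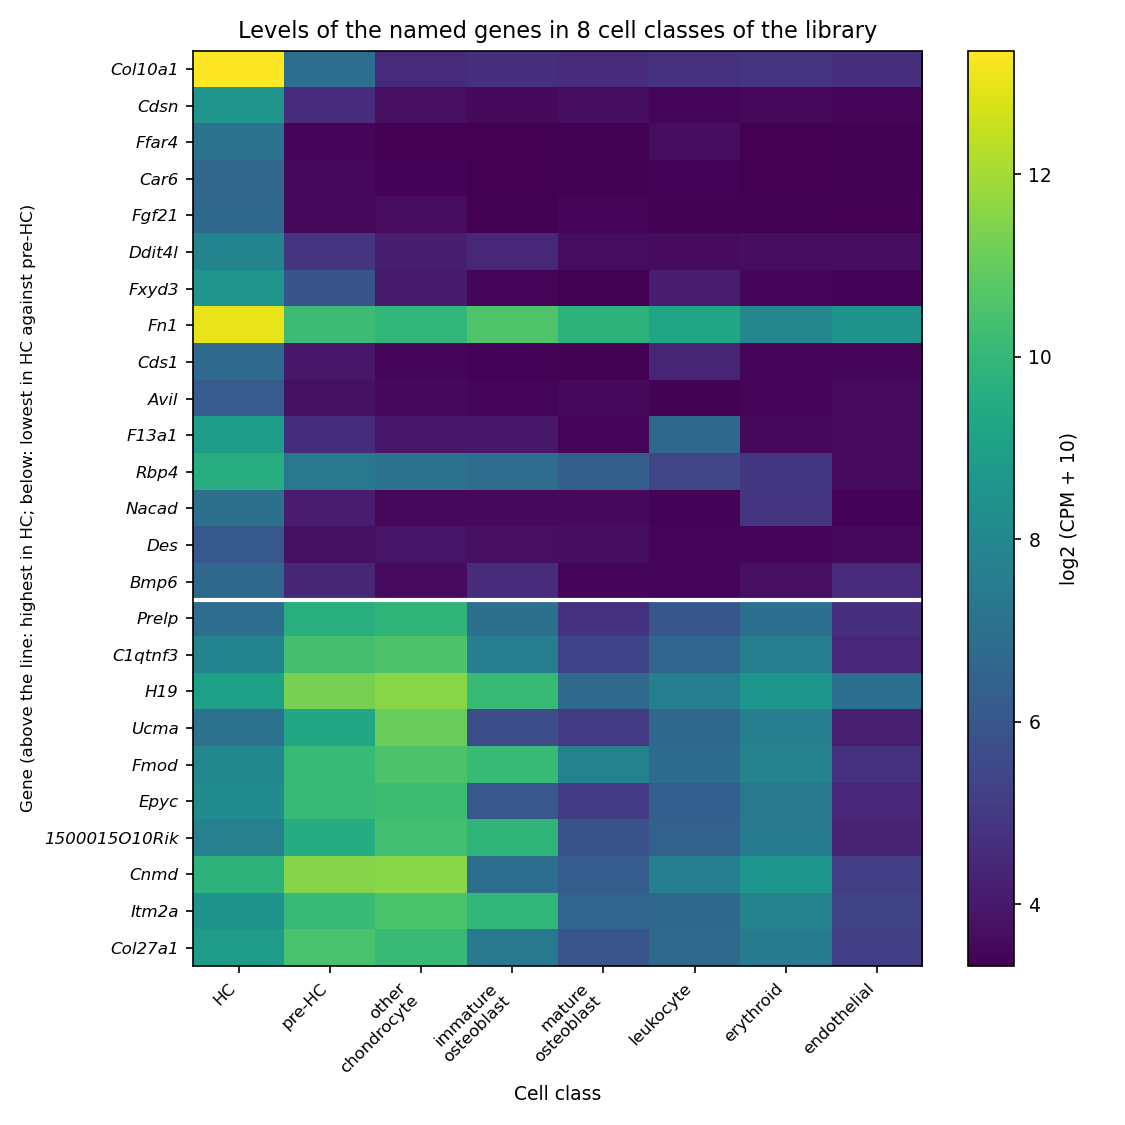
Level of the named genes as log2 of (CPM + 10), colour, in 8 cell classes (columns). The 15 genes above the white line were chosen for the highest ratio of HCs to any other class, and the 10 below it for the lowest ratio of HCs to pre-HCs. Fn1 and Rbp4 are also seen in other classes, whereas Ffar4 and Car6 are near the floor outside HCs.

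The list of matrix and mineral genes of hypertrophic cartilage had 15 members, of which 12 were compared with pre-HCs. Of these, 6 were at least 2-fold higher and 0 lower, against 10.2% and 3.47% of all 2966 genes. The median log2 ratio was 1.48 against 0.27 for all genes. Both the 6 and the median include Col10a1, which chose the cells, so its call was fixed by the rule and is no result. The other higher genes were Bmp6, Alpl, Ank, Ibsp and Spp1. Alpl, the alkaline phosphatase that frees phosphate for mineral, was at 449 CPM in HCs, 93.7 in pre-HCs, 638 in immature and 487 in mature osteoblasts, and it was spread over the cells, with a median of 3.98 per 10000 and a highest value of 16.6. Ank, a transporter that exports pyrophosphate, was at 65.4 CPM against 7.43 CPM in pre-HCs. Spp1 (osteopontin) was at 6906 CPM against 529 CPM, and Ibsp (bone sialoprotein) at 1340 CPM against 152 CPM, both proteins of mineralised matrix. Mgp, an inhibitor of mineralisation, was at 2184 CPM in HCs and 3014 CPM in pre-HCs. It was uneven among HCs, with a median of 4.21 per 10000 and 40.3% of its UMIs in 5 cells. The annexins Anxa2 and Anxa5 were close to pre-HCs, at 546 against 560 CPM and 688 against 752 CPM.

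Spp1 and Ibsp were uneven among HCs. The Spp1 level of single cells ran from 0 to 1852 UMIs per 10000 with a median of 1.85. In 26 cells it was at least 100 per 10000, and in 57 cells it was under 1 per 10000. The 5 highest cells gave 31.6% of all Spp1 UMIs. Ibsp ran from 0 to 204 per 10000 with a median of 1.71. The summed level of either gene is therefore not the level of a typical HC. A UMI of Spp1 was found in 57.0% of thinned HCs, 19.6% of pre-HCs and 27.9% of erythroid cells, so that a single UMI of Spp1 cannot be read as expression. Ibsp was found in 54.7% of thinned HCs, 5.30% of pre-HCs and 11.2% of erythroid cells. Spp1 was at least 10 per 10000 in 25 of the 33 cells with as much Ibsp and in 51 of all 129 cells. Across the 129 cells the Spearman correlation of the pair was 0.64. All such correlations are descriptions over cells of 1 library.

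Among genes of matrix breakdown and vessel signals, 2 of 10 compared were at least 2-fold higher than in pre-HCs (Mmp13 and Timp3) and 1 was lower (Cyr61). Of all 2966 genes, 10.2% were higher and 3.47% lower, so these few calls say little of the list. Its median log2 ratio was 0.37. Mmp13, the collagenase of late hypertrophic cartilage, was at 426 CPM against 72.0 CPM in pre-HCs, 1419 CPM in immature osteoblasts and 506 CPM in mature ones. It was concentrated in few cells, with a median of 0, a highest value of 440 UMIs per 10000 and 61.4% of its UMIs in 5 cells, and after thinning it was found in 18.8% of HCs against 6.26% of pre-HCs and 9.35% of erythroid cells. Of the 29 HCs with at least 1 Mmp13 UMI per 10000, 28 also had at least 10 of Spp1, against 51 of all 129 HCs. Mmp14, the membrane-bound protease, was at 50.9 CPM in HCs (44.5 to 57.9) and 39.6 CPM in pre-HCs against 721 CPM in immature osteoblasts. In erythroid cells it was at 56.8 CPM, so its summed level in HCs was not above background. It was found in 18% of thinned HCs, 17.5% of pre-HCs and 12% of erythroid cells, and single HCs held 8.64 and 7.89 UMIs per 10000. Vegfa, the main vessel growth factor, was at 186 CPM against 113 CPM, or 1.65-fold (1.52 to 1.79), with a median of 1.35 and a highest value of 8.76 per 10000. It was found in 56.2% of thinned HCs, 37.2% of pre-HCs and 8.35% of erythroid cells. Mmp9 was at 11.0 CPM, below the minimum for comparison.

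Of 16 signalling genes of the pre-hypertrophic zone, 7 were compared with pre-HCs, and these include Pth1r, which is part of the pre-HC rule. Fgfr1 was at least 2-fold higher and Ptch1 at least 2-fold lower than in pre-HCs, with a median log2 ratio of -0.06. Of all 2966 genes, 10.2% were higher and 3.47% lower, so these few calls say little of the list. Centred on the median of all genes, Fgfr3 was also at least 2-fold lower. Ihh (Indian hedgehog, the ligand that keeps neighbouring chondrocytes dividing) was at 168 CPM in HCs (157 to 181) and 105 CPM in pre-HCs (100 to 110), and at 6.16 CPM or less in the other chondrocytes and osteoblasts. Pth1r (the receptor of parathyroid hormone and its related protein, part of the pre-HC rule) was at 1088 CPM against 977 CPM, and was at 219 CPM in immature osteoblasts and 379 CPM in mature ones. Pthlh, which encodes that related protein, had 0 UMIs in the 129 HCs, which by counting allows a summed level of up to 0.826 CPM. Fgfr3, a receptor that slows growth, was at 224 CPM against 455 CPM, while Fgfr1 was at 166 CPM against 40.6 CPM. The hedgehog target Ptch1 was at 30.5 CPM in HCs against 140 CPM in pre-HCs and 33.2 CPM in erythroid cells, and Gli1, another target, had 4 UMIs in HCs and was at 9.26 CPM in pre-HCs. Ihh was within 2-fold of pre-HCs, and Gli1 was below the minimum for comparison in both classes.

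**Figure D3:**
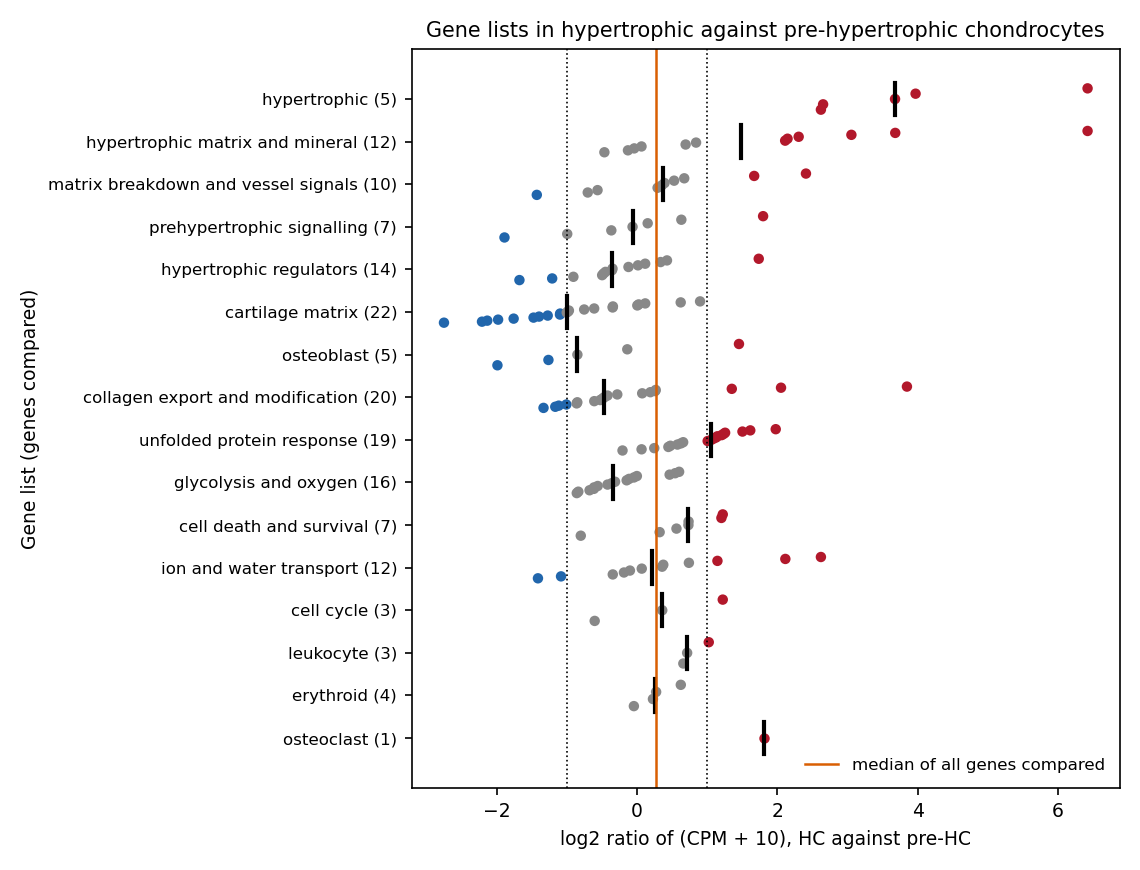
Log2 ratios of (CPM + 10) between HCs and pre-HCs for the members of each list that reached 50 CPM in either class. Each point is a gene, red at least 2-fold higher, blue at least 2-fold lower, and black bars are list medians. The orange line is the median of all genes compared, 0.27. Unfolded protein response genes lie mostly to its right and cartilage matrix genes mostly to its left.

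Among 14 of 23 regulators of chondrocyte hypertrophy that were compared, Irx5 was at least 2-fold higher than in pre-HCs and Sox5 and Sox9 were at least 2-fold lower. The shares of all 2966 genes were 10.2% higher and 3.47% lower. The median log2 ratio of the list was -0.35. Sox9, the main activator of cartilage genes, was at 448 CPM in HCs against 1048 CPM in pre-HCs, and Sox5, its partner, at 35.4 CPM against 135 CPM. Mef2c and Runx2, which drive hypertrophy, were at 470 against 465 CPM and at 95.7 against 139 CPM. Irx5 was at 78.4 CPM against 16.5 CPM, or 4.75-fold (4.05 to 5.56), close to the 71.2 CPM of mature osteoblasts, and Irx3 was at 20.4 CPM against 10.9 CPM. Irx5 was heterozygous in both classes, whereas the Irx3 deletion by the Col10a1 Cre belongs to the HC lineage, so that the Irx3 dose of the 2 classes need not be the same. Centred on the median of all genes, Runx3 was the only further call in this list, as lower.

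Of 22 cartilage matrix genes compared with pre-HCs, 0 were at least 2-fold higher and 10 were at least 2-fold lower, against 10.2% and 3.47% of all 2966 genes. The median log2 ratio was -0.99. The lower genes were Col9a1, Col9a2, Col9a3, Matn1, Matn3, Ucma, Cnmd, Epyc, Prelp and Fmod, and centred on the median of all genes there were 14. Col2a1, part of the pre-HC rule, was at 26756 CPM in HCs and 52380 CPM in pre-HCs, and ran from 5.61 to 961 UMIs per 10000 between HCs. Acan, the large proteoglycan aggrecan, was at 5202 CPM against 6594 CPM, and Hapln1, its link protein, at 5952 CPM against 7565 CPM. The 10 genes that stood lowest against pre-HCs, among 269 with at least 500 CPM there, were Prelp (110 against 797 CPM), C1qtnf3 (220 against 1343 CPM), H19 (511 against 2478 CPM), Ucma, Fmod, Epyc, 1500015O10Rik, Cnmd, Itm2a and Col27a1. Of these, Prelp, Fmod and Epyc are small proteoglycans that bind collagen, Cnmd encodes chondromodulin, which holds vessels off cartilage, and H19 is an imprinted noncoding RNA.

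Against pre-HCs, genes of protein folding in the endoplasmic reticulum were called higher or not called, and most of those calls depend on the scaling. Of 19 genes of the unfolded protein response compared with pre-HCs, 11 were at least 2-fold higher and 0 lower, against 10.2% and 3.47% of all genes. The median log2 ratio was 1.06 against 0.27 for all genes, and 18 of the 19 lay above 0, as did 2027 of all 2966 genes. Centred on the median of all genes, 3 of the 19 stayed at least 2-fold higher (Hspa5, Dnajb9 and Trib3) and 0 were lower. Hspa5, the main chaperone of that compartment (BiP), was at 3857 CPM (3800 to 3915) against 971 CPM, or 3.97-fold (3.89 to 4.06). Over the cells its level ran from 1.48 to 202 UMIs per 10000 with a median of 18.6, against a median of 9.11 in pre-HCs, and 26 HCs had at least 50 per 10000. Hsp90b1 was at 1880 against 808 CPM, Manf at 939 against 387 CPM and Dnajb9 at 231 against 68.8 CPM, all chaperones or their helpers. Of the stress factor Atf4 and genes known as its targets, Trib3 was at 93.0 against 26.3 CPM, Asns at 229 against 97.8 CPM and Ddit3 at 153 against 68.0 CPM (the last pair not called when centred), Chac1 at 45.9 against 54.4 CPM and Atf4 itself at 636 against 534 CPM. In the median HC, Hsp90b1 was at 8.95, Asns at 1.72, Ddit3 at 0.795 and Trib3 at 0.667 per 10000, each below its summed level. Against immature osteoblasts 13 of 19 genes of this list were at least 2-fold higher and 1, Creb3l1, was lower (11 and 1 when centred), against 14.6% higher and 15.3% lower of all 3530 genes in that comparison.

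For genes that modify and export collagen the direction was mixed. Of 20 compared with pre-HCs, 3 were at least 2-fold higher (Loxl4, Lox and Mia3) and 4 were at least 2-fold lower (Plod2, Serpinh1, Crtap and Creb3l2). The shares of all 2966 genes were 10.2% higher and 3.47% lower. The median log2 ratio of the list was -0.46. Centred on the median of all genes, the same 3 were higher and 6 were lower, with Plod1 and Loxl3 added. Lox, an enzyme that starts the cross-linking of collagen outside the cell, was at 414 CPM in HCs (395 to 433), 19.4 CPM in pre-HCs, 357 CPM in immature osteoblasts and 875 CPM in mature ones, a 21.3-fold difference from pre-HCs (19 to 24). Loxl4, of the same family, was at 214 CPM in HCs, 44.0 in pre-HCs and 27.5 CPM or less in the osteoblasts. Mia3, which helps to load collagen into transport vesicles, was at 162 against 57.3 CPM. Serpinh1, a collagen chaperone, was at 1120 against 2258 CPM, and Plod2, a lysyl hydroxylase, at 352 against 901 CPM.

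Glycolysis and oxygen response genes were within 2-fold of pre-HCs in all 16 cases compared (median log2 ratio -0.33), though Eno1 and Ldha passed 2-fold as lower when centred on the median of all genes, and 12 of 15 were at least 2-fold higher than in immature osteoblasts, against 14.6% of all genes. Ldha was at 1104 CPM in HCs, 1976 CPM in pre-HCs and 499 CPM in immature osteoblasts, and the glucose transporter Slc2a1 at 228, 147 and 35.1 CPM. Of 12 ion and water transport genes compared with pre-HCs, Fxyd3, Fxyd5 and Atp1b1 were at least 2-fold higher and Slc8a3 and Car12 at least 2-fold lower. The shares of all 2966 genes were 10.2% higher and 3.47% lower. Atp1b1 was no longer called when centred. In the cell death and survival list, 2 of 7 genes compared were at least 2-fold higher and 0 lower, against 10.2% and 3.47% of all 2966 genes. Trp53 was at 63.4 against 21.8 CPM and Cdkn1a at 773 against 325 CPM. Centred on the median of all genes, neither was called and Gadd45b was lower. Of the cell cycle list 3 of 14 genes reached 50 CPM in either class. Cdkn1a, a brake on division and a target of p53, was the 1 call and was lost when centred, while Cdkn1c, the brake that marks the end of division in growth plate cartilage, was at 1909 CPM against 2900 CPM. Top2a and Mki67, made by dividing cells, were at 21.5 and 27.1 CPM, and 5 HCs gave 76.0% and 76.9% of their UMIs.

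Against immature osteoblasts, HCs were at least 2-fold higher in 517 of 3530 genes (14.6%) and at least 2-fold lower in 541 (15.3%), with a median log2 ratio of 0.10. Of 22 cartilage matrix genes 17 were higher and 3 lower, with Fmod, Dcn and Sparc the lower ones. Col2a1 is among the 17, and the osteoblast rule held it to no more than Col1a1, so its call was partly set by that rule. All 12 osteoblast genes compared were lower. They include Col1a1, by which the osteoblasts were chosen, so the call of Col1a1 is no result. Col1a1 was at 87.8 CPM in HCs (79.3 to 97.0), 378 CPM in pre-HCs, 24796 CPM in immature osteoblasts and 66917 CPM in mature ones. It was also at 1754 CPM in erythroid cells, which should lack it, and was found in 30.5% of thinned HCs against 62.8% of thinned erythroid cells, so at or below background. Against pre-HCs, 5 osteoblast genes were compared, with Col5a2 higher and Col1a1 and Bglap lower (and Col3a1 when centred). In that comparison 10.2% of all 2966 genes were higher and 3.47% lower. Bglap (osteocalcin) was at 15.9 CPM in HCs against 1807 CPM in immature osteoblasts and 294 CPM in erythroid cells, and Sost, made by osteocytes, had 0 UMIs. Phex, a protease of late osteoblasts, was at 14.8 CPM in HCs (11.4 to 18.8), 2.22 CPM in pre-HCs, 7.05 CPM in erythroid cells and 116 CPM in immature osteoblasts. In 1 of the 129 cells Col1a1 was above Col2a1. Against mature osteoblasts 628 of 3166 genes were at least 2-fold higher (19.8%) and 298 lower (9.41%), and against the other chondrocytes 438 of 3077 were higher (14.2%) and 199 lower (6.47%). The median log2 ratios were 0.34 and 0.30, so these splits may depend on the scaling too. Centred counts of all genes are not given for these contrasts. Both contrasts use the same 129 HCs as the others.

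The reporter is read through WPRE, a sequence behind tdTomato in the reporter transcript that is captured more often. In HCs, WPRE was counted 3540 times and tdTomato 75 times, or 47.2 WPRE UMIs per tdTomato UMI. The WPRE count ran from 0 to 113 with a median of 20. The study called cells with over 14 WPRE UMIs labelled, and by that cutoff 76 HCs (58.9%, interval 49.9 to 67.5%) were labelled, 38 had 1 to 14 UMIs and 15 had none. The study set this cutoff by a share of labelled HCs known from experiments and by the shape of the WPRE distribution. That known share lay above the interval found here. The HCs here were chosen by Col10a1 level and not by the study's clusters, so the share here is a description. Of the 49 HCs with a tdTomato UMI, 43 were above the cutoff. Near the cutoff, 13 HCs had 10 to 14 UMIs and 10 had 15 to 19, with no gap between them. Above the cutoff were also 10 of 624 pre-HCs (1.60%), 28 of 472 immature osteoblasts (5.93%), 121 of 346 mature osteoblasts (35.0%), 20 of 1351 leukocytes (1.48%) and 10 of 599 erythroid cells (1.67%). Leukocytes and erythroid cells served as background. WPRE was at 793 CPM in HCs, 27.1 in pre-HCs, 54.2 in leukocytes and 41.9 in erythroid cells. Endothelial cells had 66.7 CPM and 0.255% of cells above the cutoff, and the other chondrocytes had 17.6 CPM and 0.306%. The share of pre-HCs above the cutoff was thus near that of leukocytes and erythroid cells and above that of endothelial cells and other chondrocytes.

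**Figure D4:**
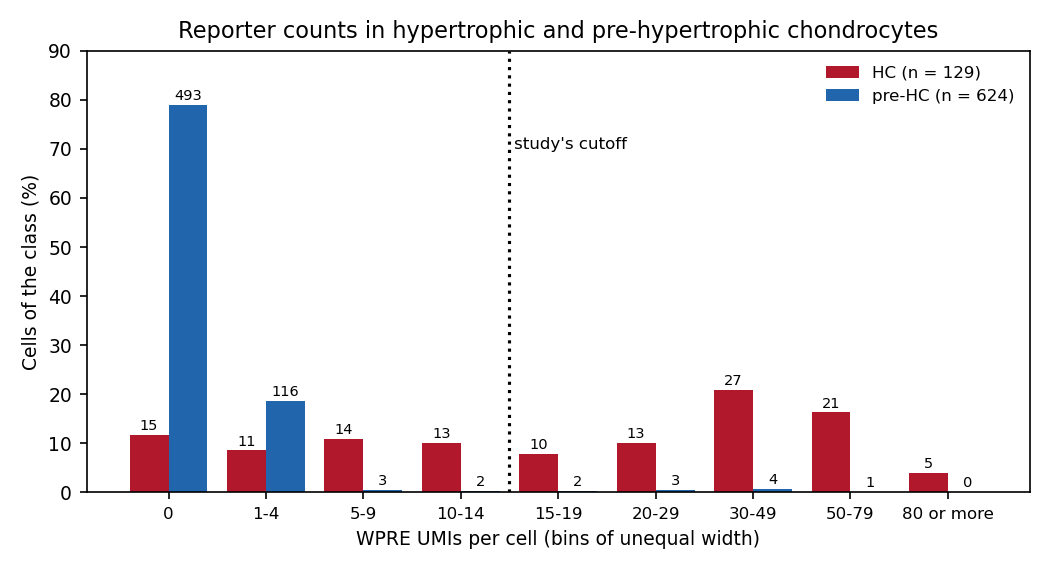
Share of HCs (red, 129 cells) and pre-HCs (blue, 624 cells) in each range of WPRE UMIs, with the number of cells on each bar and the study's cutoff as a dotted line. Of the pre-HCs 493 have 0 WPRE UMIs, whereas the HCs are spread over all ranges.

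Above the cutoff 145 of 3064 genes (4.73%) were at least 2-fold higher and 100 (3.26%) at least 2-fold lower than in HCs at or below it, with a median log2 ratio of 0.17. Centred on that median, 100 were higher and 162 lower. The counts depend on how the label is read, with 222 higher and 101 lower at more than 7 WPRE UMIs, 100 and 129 at more than 28, and 30 and 37 by a tdTomato UMI, and with 91 and 64 among cells from 50 Col10a1 UMIs per 10000. Since Cre and Col10a1 share control, the label and the Col10a1 rule are not independent, and Col10a1 itself was at 12065 CPM above the cutoff and 7360 CPM at or below it. Of 12 matrix and mineral genes compared, 4 were at least 2-fold higher in labelled HCs (Ank, Ibsp, Spp1 and Mgp). Bmp2 was lower, and the median log2 ratio of the list was 0.06, below that of all genes. The same genes were called when centred. Alpl was at 393 CPM in labelled HCs, 580 CPM with 1 to 14 WPRE UMIs and 503 CPM with none. Spp1 was at 9541 CPM in labelled HCs (median cell 15.4 per 10000) and 1895 CPM in the others (median cell 0.391), Ibsp at 1826 against 417 CPM, Lox at 564 against 129 CPM, Fn1 at 10828 against 3365 CPM and Cdsn at 496 against 117 CPM. In the other direction, Cdkn1c was at 887 against 3851 CPM (median cells 1.11 and 34.1 per 10000), Matn3 at 657 against 2510 CPM, Cnmd at 443 against 1695 CPM and Col2a1 at 16425 against 46403 CPM. Of 22 cartilage matrix genes, 15 were at least 2-fold lower in labelled HCs and 1, Dcn, was higher, with the same counts when centred. Pth1r was at 765 against 1702 CPM and Ihh at 152 against 200 CPM. Mmp14 was at 64.6 against 24.7 CPM and was called at least 2-fold higher, a call lost when centred. Labelled cells were also deeper, with a median of 37889 UMIs, against 28043 UMIs with 1 to 14 WPRE UMIs and 29162 UMIs with none, and a deeper cell passes a fixed UMI cutoff more easily. Their median mitochondrial share was 4.53%, against 3.11% and 3.30%. The part of depth and of cell quality in these differences was not tested.

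Neutrophil genes stood among the highest in labelled HCs and came from few cells. All 4 leukocyte genes compared (S100a8, S100a9, Lyz2 and Laptm5) were at least 2-fold higher there, against 4.73% of all 3064 genes. The osteoclast gene Ctsk was higher too, and these calls stayed when centred. S100a9 was at 607 CPM above the cutoff and 55.3 CPM at or below it, but the median cells had 0.327 and 0.479 per 10000, and 2 cells, both above the cutoff, held over 50 per 10000 of S100a8 and S100a9. Without the 5 HCs rich in other cells' RNA, of which 3 were labelled, S100a9 was at 68.4 and 56.9 CPM. Ngp, another neutrophil gene, went from 220.5 and 9.10 CPM to 11.4 and 8.22 CPM. Of the haemoglobin and smooth muscle genes, Hbb-bs went from 1168 and 1751 CPM to 241 and 173 CPM, and Acta2 from 1.71 and 76.1 CPM to 1.78 and 13 CPM. Without these cells the levels were, for Spp1, 9742 against 1995 CPM, for Ibsp 1887 against 420 CPM and for Cdkn1c 922 against 3958 CPM, and 150 genes were then higher and 104 lower.

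Within the HCs, Cdsn and Cdkn1c were found mostly in different cells. This pair, chosen after its values were seen, had a Spearman correlation of -0.77 over the 129 cells. Of 51 cells with at least 10 Cdkn1c UMIs per 10000 and 77 with at least 1 Cdsn UMI per 10000, 6 cells met both limits and 7 met none. Cdkn1c went with the cartilage genes Matn3 (0.85), Hapln1 (0.82) and Col2a1 (0.77) and with Fgfr3 (0.69), and against WPRE per 10000 (-0.70). Cdsn went with Ffar4 (0.64) and WPRE (0.62) and against Matn3 (-0.78). Of the 77 cells with Cdsn at its limit 61 were above the WPRE cutoff, and of the 51 with Cdkn1c 12 were, against 76 of all 129 HCs. Depth had a correlation of 0.15 with Cdsn and 0.02 with Cdkn1c.

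Of all 129 HCs, 56 had at least 1 Ihh UMI per 10000, and 12 of the 51 HCs with at least 10 of Spp1 were among them. A further 34 HCs met neither limit, and the Spearman correlation of Ihh and Spp1 was -0.33. Ihh went with Pth1r (0.60), Fgfr3 (0.57) and Mef2c (0.45), and 53 of the 56 Ihh cells had at least 3 Pth1r UMIs per 10000, against 89 of all 129 HCs. Spp1 went with Fn1 (0.74), F13a1 (0.64), Ibsp (0.64), Lox (0.56), Mmp13 (0.53) and Mgp (0.52). It also went with the share of mitochondrial UMIs (0.54), as did Fn1 (0.59) and Mmp14 (0.45), and the part of cell quality in this pattern was not tested. Hspa5 went with Hsp90b1 (0.79), Asns (0.58), Trib3 (0.53), Col10a1 (0.50), Atf4 (0.41) and Ddit3 (0.34), against Mef2c (-0.63) and Pth1r (-0.57), and hardly with Spp1 (-0.03).

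**Figure D5:**
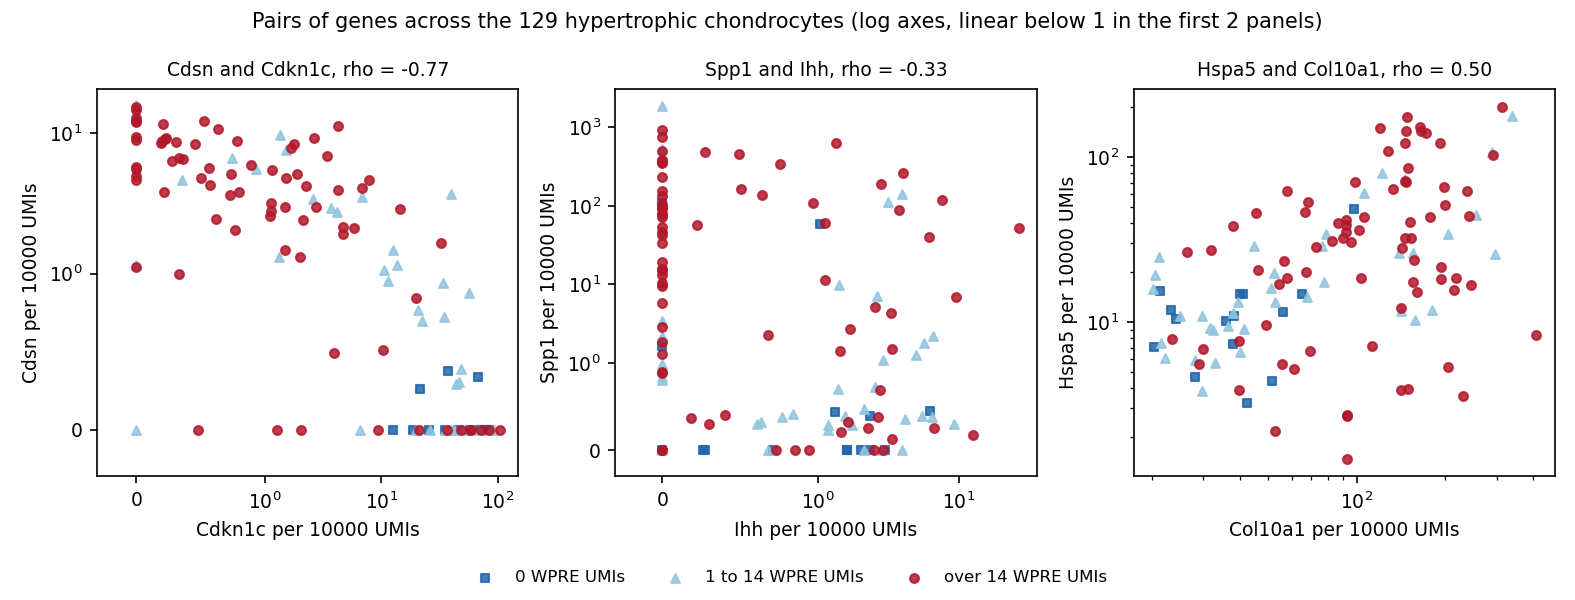
Levels per 10000 UMIs of 3 pairs of genes in each of the 129 HCs, with the WPRE range as colour and shape. Most cells rich in Cdkn1c have little or no Cdsn (rho -0.77), cells rich in Spp1 tend to have less Ihh (rho -0.33), and Hspa5 is higher where Col10a1 is higher (rho 0.50).

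Along the Col10a1 range, Hspa5 stood at 1437 CPM in the 40 cells of 20 to under 50 per 10000, at 4790 CPM in the 73 cells of 50 to under 200 and at 5683 CPM in the 16 cells of 200 or more, with medians of 9.88, 28.8 and 38.9 per 10000. Lox was at 93.6, 499 and 865 CPM, Loxl4 at 83.4, 230 and 504 CPM, Ffar4 at 25.6, 153 and 302 CPM and Ibsp at 486, 1653 and 2076 CPM in the same 3 ranges. Cdkn1c went from 3336 to 1456 to 293 CPM, Sox9 from 649 to 399 to 141 CPM and Col2a1 from 39062 to 21910 to 18057 CPM, while Acan was at 4952, 4710 and 8644 CPM. The share of labelled cells was 27.5%, 74.0% and 68.8%. The highest range holds only 16 cells and the group without WPRE only 15, so their values are the least precise. Ihh had no such order, with 195, 151 and 188 CPM, and Irx3 hardly varied, with 19.7, 20.6 and 21.1 CPM.

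Among 4511 genes with a UMI in at least 50% of HCs, the Spearman correlation with Col10a1 per 10000 was highest for Loxl4 (0.71), followed by Ffar4 (0.63), Atf5 (0.56), a stress-response transcription factor, Tinagl1 (0.54), a secreted matrix protein, Alox12 (0.54), a lipoxygenase, Yipf3 and Tgoln1 (0.54 each), proteins of the Golgi apparatus, Ppp3ca (0.53), a calcineurin subunit, Tmbim4 (0.53) and Map1lc3b (0.53), an autophagy protein. The median over the 4511 genes was 0.08. At the other end stood Rps2 (-0.58) and other genes of the ribosome, along with Sgms2 (-0.55), Slc8a3 (-0.53), Plod2 (-0.51) and Nedd4 (-0.51). Of the cytosolic ribosomal protein genes, 73 of 81 lay below 0 (median -0.27), as did 1496 of all 4511 genes. These levels are shares of each cell's UMIs. Depth had a correlation of 0.02 with Col10a1.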

How the data were processed

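The authors deposited raw UMI counts for each gene in each barcode, which they made in Cell Ranger 3.1.0 (mm10 plus tdTomato and WPRE; the submitters' processing notes also name Seurat 3), and a second count matrix of 98 exogenous sequences, which was joined by barcode. Their gene annotation was not stated in the sources. Of 31053 gene identifiers, 30934 matched GENCODE M21 (GRCm38), which gave coordinates. The study's P56 cells were not analysed here.

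UMIs were summed over the cells of a class and scaled to 1000000 (CPM), then compared as log2 ratios with 10 CPM added for genes with at least 50 CPM in either class. Shares were compared with each cell thinned to 5000 UMIs (seed 1), which left out 1 HC, 1 pre-HC, 8 other chondrocytes, 7 immature osteoblasts, 63 leukocytes and 88 endothelial cells. A cell that met 2 rules went to the first of HC, leukocyte, erythroid, pre-HC, other chondrocyte, osteoblast and endothelial. Leukocytes had at least 3 Ptprc UMIs, erythroid cells at least 1000 haemoglobin UMIs per 10000, endothelial cells at least 1 per 10000 each of Cdh5 and Pecam1, and mature osteoblasts at least 3 per 10000 of Ifitm5. Python 3.11.15 with numpy 2.4.6, scipy 1.17.1, pandas 2.3.3, scanpy 1.11.5 (Scrublet at an expected doublet rate of 10%, which marked 588 barcodes, or 4.15%; doublets were kept) and matplotlib 3.10.9 was used. The comparison was also run on simulated counts with counting error only. They hold no spread between cells, so they cannot show how that spread affects the calls.

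Named genes are the markers, members of 17 lists, the 15 genes highest in HCs against every other class, the 10 lowest against pre-HCs and the 10 that follow Col10a1 most closely. Snorc and Lepre1 were not found by symbol. The HC rule, the lists and the limits were chosen with earlier results of these data known. Alternatives on cells, reporter cutoff, pseudocount, minimum level and scaling are given in the closing section.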

Additional observations from a re-analysis of the deposited data

Results flagged for a closer look

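Outside the gene matrix, EGFP was counted 16 times in 14 HCs, 9 times in pre-HCs, 2 times in other chondrocytes, 10 times in immature and 12 times in mature osteoblasts, 1 time in erythroid cells and 0 times in leukocytes and endothelial cells, although the labels name no EGFP in this mouse. All 14 HCs with EGFP were above the WPRE cutoff. The sequence CRE was counted 3 times in HCs and 1 time in pre-HCs. What these counts come from was not tested.

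There were 92 barcodes at or above the Col10a1 limit that failed the limits on cells and are in none of the values above. Of these, 73 had under 1600 genes, 68 had over 10% mitochondrial UMIs and 49 had both. Their median was 1975 UMIs, 662 genes, 22.5% mitochondrial UMIs and 60.5 Col10a1 UMIs per 10000, and 8 of them were above the WPRE cutoff. What they hold beyond these counts was not tested.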

How the results depend on the processing

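With 1 library, counting error is the only error given, and it says nothing of other mice. Counts of HCs and of called genes that moved by over 1.5 times, reporter shares past their counting interval and correlations that moved by over 0.1 follow, with a few others, and the causes were not tested except where named. The 25 genes named for their extreme ratios were chosen by them, so that their staying past 2-fold says nothing of stability.

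The number of HCs was 158 with Col10a1 from 10 per 10000, 89 from 50, and 85 with at most 5% mitochondrial UMIs, where immature osteoblasts went from 472 to 169. Pre-HCs went from 624 to 1226 with Pth1r from 1 per 10000 and to 415 with Pth1r from 5. The share above the WPRE cutoff (58.9%) was 73.0% from 50 Col10a1 UMIs per 10000, 71.3% with more than 7 WPRE UMIs, 41.1% with more than 28 and 38% by at least 1 tdTomato UMI. The correlation of Col10a1 with WPRE over cells (0.44) was 0.55 with Col10a1 from 10 per 10000 and 0.10 from 50, so it depends on the Col10a1 minimum. A higher minimum narrows the range of Col10a1, which can lower such a correlation by itself, so these values do not show which cells carry it. Against pre-HCs, 160 genes were lower with Col10a1 from 50. With a minimum of 10 CPM or of 1 UMI in place of 50 CPM, 460 genes were higher and 157 lower than in pre-HCs, 1089 were lower than in immature osteoblasts (722 were higher), and 237 were higher in labelled HCs. Centred on the median ratio, 162 were higher and 181 lower than in pre-HCs, 446 higher and 588 lower than in immature osteoblasts, and 162 were lower in labelled HCs. The contrast by label gave 91 higher and 64 lower from 50 Col10a1 UMIs per 10000, 30 and 37 by tdTomato, 222 and 101 with more than 7 WPRE UMIs, and 100 and 129 with more than 28, where the lower genes were in excess.

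The centring, and leaving out HCs rich in other cells' RNA, were chosen after the data were seen. No paired analysis was possible because the 4 entries are 1 library, which also means that there was no replicate to leave out.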
